A study of Mus musculus with 5 samples.

Results

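Replication-dependent histone genes are the clustered, mostly single-exon genes that supply new core and linker histones while DNA is copied. They were taken as all protein-coding entries of the deposited count table whose mouse symbol begins with Hist1h, Hist2h, Hist3h or Hist4h followed by the histone type. This gave 65 genes among 39056 rows: 6 for the linker histone H1, 18 for H2A, 16 for H2B, 12 for H3 and 13 for H4. Of 67 protein-coding genes with such symbols in the annotation, Hist1h2bh and Hist1h2bm matched no row and were not analysed here.

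Genes were counted in 5 libraries of haematopoietic stem and progenitor cells that had been sorted from the marrow of C57BL/6 mice aged 15 postnatal days. They were LSK (lineage-negative, Sca-1-positive, Kit-positive), a fraction in which blood stem cells are found beside multipotent progenitors, and about 12000 were sorted for a library. The groups were wild type (WT, 2 libraries) and Gabbr1 null (3 libraries), and the study asks what loss of Gabbr1, a subunit of the GABA-B neurotransmitter receptor, does to such cells. The labels do not give the null allele, the sex, the litter or whether each library is a separate animal, and they name 4 animals per genotype in one field and 2 and 3 in another, so a p-value here speaks of library-to-library spread. Every library was made by the same low-input protocol with ribosomal RNA depletion, while another label field calls the molecule polyA RNA.

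Histone genes of this class are switched on as cells enter S phase, with NPAT at their promoters, and are shut off when DNA synthesis ends. Their mRNAs lack a poly(A) tail and end in a conserved stem-loop that is bound by SLBP and cut with the help of the U7 small nuclear RNP. Variant histones such as H2A.Z and H3.3 come from separate genes with ordinary polyadenylated mRNAs that are made throughout the cell cycle.

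Total counts were between 6972753 and 8150774 per library. Gabbr1 itself was still counted in the null libraries and fell, from 49.5 and 57.4 CPM (counts scaled to library size) in WT to 38.5, 34.8 and 33.0 CPM (log2 fold change -0.59, SE 0.13, edgeR adjusted p = 0.0361). Of 12 stem cell and gate genes, 2 had a change above 0 and the median change was -0.34. With edgeR 2 passed as lower (0.334% of all genes) and with DESeq2 4 (0.379%). At an unadjusted edgeR p under 0.05, 7 were lower, where 4.84% of all genes were. The list summed to 4969 and 5153 CPM in WT, against 4129 to 4273 CPM in null libraries. Among these genes, Hlf fell and Kit lay between 864 and 1049 CPM in all 5 libraries. Markers of other cells moved with genotype (by edgeR call, 2.15% of all genes rose and 0.334% fell). Of 18 B-lineage genes, 16 rose and Igkc fell, and the summed level was 934 and 1290 CPM in WT against 1519 to 2177 CPM in null libraries. Of 16 endothelial and stromal genes, 12 rose, with sums of 186 and 196 CPM against 350 to 568 CPM. None of 9 tested neutrophil genes passed with edgeR, DESeq2 or limma-voom, 8 were higher at an unadjusted edgeR p under 0.05, and the 13 listed genes summed to 2234 CPM in null library 1 and 598 CPM in null library 2, against 109 to 148 CPM in the other libraries. Null library 1 was also the library with Xist, at 3002 CPM against at most 2.77 CPM elsewhere. None of the 4 tested erythroid genes passed, with 3 higher by unadjusted edgeR p. The 9 listed erythroid genes in the table summed to 41.2 CPM in null library 1, against 5.70 to 10.2 CPM in the other libraries. The globin genes Hba-a1 and Hba-a2 were at 0 in all libraries, but how reads with several matches were counted is not known. Trbc1 rose among 3 tested T and NK cell genes, while Cd3e reached at most 0.27 CPM, and Ccr2 rose among 7 tested monocyte and dendritic cell genes. What part these markers have in the histone values below was not tested. In bulk RNA, more cells of a type and more RNA per cell cannot be told apart.

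On the mm10 build, 52 members lie at the Hist1 locus on chromosome 13, 10 at Hist2 on chromosome 3, 2 at Hist3 on chromosome 11 and Hist4h4 alone on chromosome 6. Hist1 fell into a block of 22 genes (chr13:21715763-22043676) and a block of 30 genes (chr13:23531050-23934851). The 65 coding sequences gave 29 distinct proteins. All 13 H4 genes encode the same protein, 9 H2A genes share another, and the H3 genes encode H3.1 (Hist1h3a, Hist1h3g, Hist1h3h and Hist1h3i) or H3.2 (7 genes), which differ at 1 residue. Only Hist2h3c1 had a longer H3 model.

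The 3′ stem-loop was found in 43 of the 65 transcript models, as 8 distinct 16-base sequences. Of the 22 models without it, 15 end within 25 bases of the stop codon, before the stem-loop would be reached. The sequences below show 1 gene for each version, with the 6-pair stem and its 4-base loop in capitals and the flanking bases in lower case. They are read from the transcript models in the 5′ to 3′ direction.
Hist1h3b: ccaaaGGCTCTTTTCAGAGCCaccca
Hist1h3f: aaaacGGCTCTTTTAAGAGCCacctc
Hist1h4d: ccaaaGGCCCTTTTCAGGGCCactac
Hist2h4: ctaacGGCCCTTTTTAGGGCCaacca
Hist1h4b: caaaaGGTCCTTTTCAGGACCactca
Hist1h4a: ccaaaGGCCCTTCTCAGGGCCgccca
Hist2h2ac: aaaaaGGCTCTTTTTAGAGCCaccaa
Hist1h3g: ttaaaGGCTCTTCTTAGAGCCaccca
The version of Hist1h3b was the commonest, with 23 genes of all types other than H4. The version of Hist1h3f was shared by 6 genes, that of Hist1h4d by 7 genes that all encode H4, that of Hist2h4 by 2 (with Hist1h4i) and that of Hist1h4b by 2 (with Hist1h4j). Those of Hist1h4a, Hist2h2ac and Hist1h3g were each found in that gene alone.

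These mRNAs were abundant in every library. Members held 2.92% (95% Wilson interval 2.91 to 2.93) and 2.51% (2.50 to 2.52) of all counts in the WT libraries. In null libraries 1, 2 and 3 they held 3.70% (3.69 to 3.71), 3.197% (3.18 to 3.21) and 3.17% (3.16 to 3.19); such intervals cover counting error only. Because gene models differ in how much untranslated sequence they carry, levels are compared between genes as TMM-normalised CPM per kilobase of coding sequence.

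By that measure H3 and H4 were the highest types, with summed levels of 18149 to 27684 and 16593 to 26084 CPM per coding kilobase over the 5 libraries. H2B (11334 to 16324), H2A (10092 to 13528) and H1 (6376 to 11706) followed. The ranges of H3 and H4, of H2B and H2A, of H2B and H1 and of H2A and H1 overlapped, whereas those of H4 and H2B did not. Per kilobase of exon model the types kept this order in each library, with H3 at 10999.7 to 17159.8, H4 at 8824 to 13821, H2B at 8074 to 11668, H2A at 7774 to 10585 and H1 at 3019.75 to 5449 CPM. Relative to H4 in the same library, H3 was 1.02 and 1.09 in WT and 1.06, 1.23 and 1.11 in null libraries, and H1 was 0.37 and 0.38 in WT and 0.45, 0.38 and 0.41 in null libraries. H2A was between 0.52 and 0.61 and H2B between 0.63 and 0.68, and for each of the 4 ratios the values of the groups overlapped. As a median over members, 27.0% of 50-base stretches occur in no other gene's transcripts for H2A and 42.8% for H3. The values were 53.1% for H2B, 60.5% for H4 and 98.9% for H1. How reads with several matches were counted is not known, and what part this has in the order of types was not tested.

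Levels differed widely between genes of a type, and their order depended on the length used. By coding length Hist1h4d was the highest of all members, with a mean of 5911 CPM per coding kilobase and between 26.7% and 28.9% of the H4 CPM in each library. Hist1h3f (4127) and Hist1h2bb (3283) came next, then Hist1h3e (3222) and Hist1h3c (2934), and the highest H1 and H2A genes were Hist1h1c (2731) and Hist1h2ab (2080). Per kilobase of exon model Hist1h3i was first (2558 CPM) and Hist1h2bb second (2443), while Hist1h4d was 10th (1605), Hist1h3f 18th (1335) and Hist1h1c 21st (1113); the models of the last 3 carry long untranslated parts. The 50 members with a mean of at least 50 CPM spanned 131 (Hist1h2bp) to 5911 CPM per coding kilobase. The other 15 had a mean under 50 CPM, among them Hist1h1t, Hist1h2ba and Hist1h2aa, which encode testis histones.

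**Figure D1:**
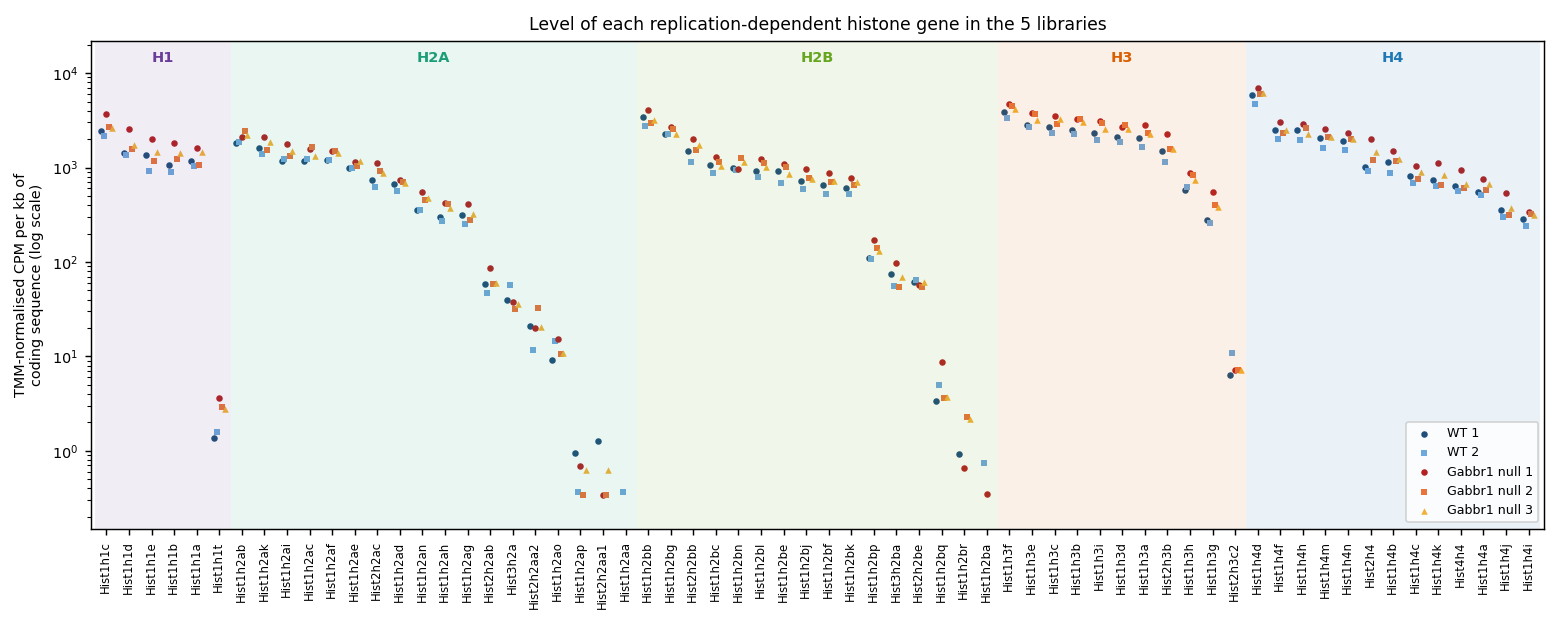
Level of each histone gene with at least 1 count (x axis, grouped by type and ordered by mean) in each of the 5 libraries, as TMM-normalised CPM per kilobase of coding sequence on a log scale; libraries at 0 are not drawn. Hist1h4d is the highest gene on this scale, and the 5 library values of a gene lie close together compared with the spread between genes.

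6 members did not pass the filter on low counts. Hist2h3c1 had 0 counts in all 5 libraries (a count of 0 allows up to 3 counts per library). Hist1h2aa, Hist1h2ba, Hist2h2aa1, Hist1h2ap and Hist1h2br had at most 7 counts in any library. The exon models of Hist2h3c1 (100%) and Hist2h2aa1 (90.3%) overlap another gene on the same strand. Of stretches of 50 bases, 93.07% of those of Hist1h2ap occur in Hist1h2ao and 88.65% of those of Hist1h2br in Hist1h2bq. How such reads were counted is not known, so the counts of these 4 genes may lie below their true level. The other 59 members were tested with edgeR's quasi-likelihood test over 13467 genes, with Benjamini-Hochberg adjustment and a threshold of 0.05.

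2 members rose in Gabbr1 null cells, Hist1h3g and Hist1h2ah, and none fell. Over all genes 2.15% were called higher and 0.334% lower, so a count of 2 among 59 is close to that background. With DESeq2, 10 members were higher (2.5% of all genes) and none lower (0.379%), and with limma-voom 2 were higher (1.62%) and none lower (0.26%). At an unadjusted edgeR p under 0.05, 30 members were higher, where 7.99% of all genes were, and 1 was lower, where 4.84% were.

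The direction was shared far more widely than the calls. A log2 fold change above 0 was found for 56 of the 59 tested members, against 49.2% of all genes. The median was 0.33 over members (0.22 without WT library 2) and -0.0045 over all genes tested, and the median SE of a member was 0.15. In 37 members every null library was above both WT libraries, which held for 15.5% of all genes, and in 1 member (Hist3h2a) every null library was below, which held for 13.7%. Many members share sequence, so their values are not independent of each other.

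Summed over the 65 members, the level was 28706 and 24896 CPM in WT libraries 1 and 2 (mean 26801 ± 2694, SD, n = 2). It was 38422, 31773 and 31887 CPM in null libraries 1, 2 and 3 (34028 ± 3806, SD, n = 3), or 1.27 times the WT mean. Null library 1 was the highest of the 5 libraries for 50 of the 59 tested members, and WT library 2 the lowest for 46. Without null library 1 the ratio of means was 1.19, and without WT library 2 it was 1.185. The WT libraries also differed from each other: the median member lay at 0.11 relative to the WT mean in library 1 and at -0.11 in library 2, on the log2 scale with 0.5 CPM added. The corresponding medians of the null libraries were 0.51, 0.22 and 0.25. In null library 3, whose neutrophil genes summed to 136 CPM, between the WT values, the histone sum was above both WT libraries. The B-lineage and the endothelial and stromal sums, like the histone sum, were higher in each null library than in both WT libraries. What part any of these markers has in the histone sum was not tested.

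**Figure D2:**
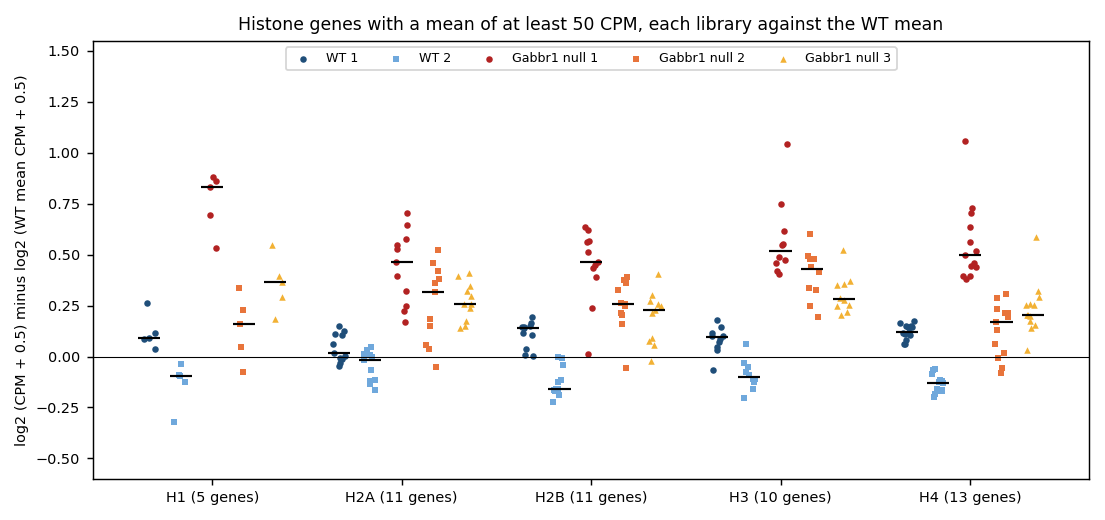
Each point is 1 histone gene with a mean of at least 50 CPM in 1 library, as log2 (CPM + 0.5) minus that of the WT mean, and black bars are medians of the type. In each type null library 1 has the highest median and WT library 2 the lowest, and null libraries 2 and 3 lie between them, above WT library 1.

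**Figure D3:**
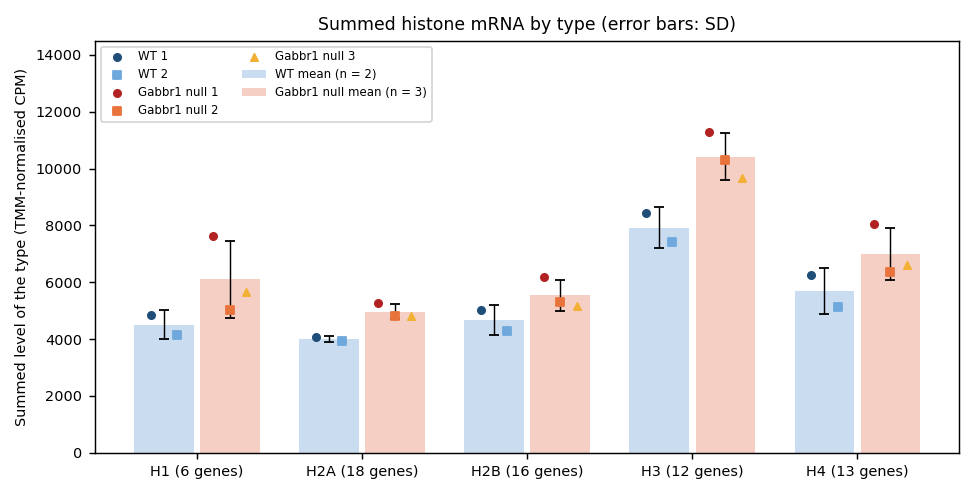
Summed level of each histone type in TMM-normalised CPM: points are libraries, bars are group means and error bars are SD (WT n = 2, Gabbr1 null n = 3). In each type the 3 null libraries lie above both WT libraries, and for H1, H2B and H4 null library 2 or 3 is close to WT library 1.

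The H1 genes encode linker histones, which bind the DNA between nucleosomes. All 6 were tested and had a log2 fold change above 0 (median 0.46). None passed with edgeR, 3 were higher at an unadjusted p under 0.05 and 1 passed with DESeq2. Their sum was 4864 and 4144 CPM in WT, against 7620, 5030 and 5657 CPM in null libraries. Hist1h1b, which encodes H1.5, was at 712 and 601 CPM in WT, against 1208, 830 and 959 CPM in null libraries. Its groups did not overlap, its log2 fold change was 0.61 (SE 0.16), and the call depended on the test (adjusted p = 0.0901 with edgeR and 0.0041 with DESeq2). Without null library 2 it was called with edgeR too (adjusted p = 0.0201). Hist1h1c, the highest linker gene per coding kilobase, was at 1552 and 1376 CPM against 2371, 1718 and 1665 CPM, a change of 0.39 (SE 0.16) that did not pass (edgeR adjusted p = 0.332). Hist1h1d had 950 and 904 CPM against 1684, 1035 and 1137 CPM, and null library 1 stood well above the other 2. For Hist1h1a, with 756 and 664 CPM against 1027, 674 and 934 CPM, the groups overlapped. Testis-specific Hist1h1t had the largest estimate of all members, 1.06 with an SE of 0.52, from 7 and 7 counts in WT and 17, 14 and 14 in null libraries (edgeR adjusted p = 0.425). H1 was the type on which null library 1 stood apart most, with a median of 0.85 above the WT mean against 0.20 and 0.38 in the other null libraries, and the H1 median log2 fold change was 0.22 without it.

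H2A pairs with H2B in the nucleosome. Of 18 H2A genes 15 were tested and 14 had a change above 0 (median 0.30), and the sum was 4090 and 3932 CPM in WT, against 5270, 4809 and 4801 CPM in null libraries. Hist1h2ah was at 114 and 104 CPM in WT, against 163, 157 and 144 CPM in null libraries, with no overlap. It rose by 0.50 (SE 0.11, edgeR adjusted p = 0.0329, DESeq2 0.0061), but leaving out a library ended the call in 4 cases: WT library 1 (adjusted p = 0.0756), WT library 2 (0.274), null library 1 (0.113) and null library 2 (0.0730). Only 9.27% of its 50-base stretches occur in no other gene's transcripts, and 87.4% occur in Hist1h2ad. A single read of 50 bases from Hist1h2ah can therefore seldom be told from those of other H2A genes. Pairs of reads, which may be placed more often, were not scored. The sources used here do not say how such reads were counted. Hist1h2an (138 and 139 CPM against 217, 179 and 184 CPM) passed with DESeq2 only (adjusted p = 0.0148, edgeR 0.0543), as did Hist2h2ac (288 and 241 CPM against 431, 355 and 336 CPM, DESeq2 0.0166, edgeR 0.108). The 9 genes that encode the commonest H2A protein, which share sequence with each other and with H2A genes outside this group, summed to 2542 and 2535 CPM in WT, against 3229, 3066 and 2998 CPM in null libraries, 1.22 times the WT mean. Hist1h2ab, the highest of the type, had 716 and 727 CPM against 811, 941 and 862 CPM and did not pass (change 0.27, SE 0.12, edgeR adjusted p = 0.378).

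Hist3h2a went the other way, at 15.5 and 22.5 CPM in WT, against 14.5, 12.5 and 13.9 CPM in null libraries. Its log2 fold change was -0.47 (SE 0.20) with an edgeR adjusted p of 0.348, and it was the smallest estimate of all members. Hist2h2be (23.0 and 24.4 CPM against 21.5, 20.6 and 23.2 CPM) and Hist2h3c2 (2.58 and 4.41 CPM against 2.93, 2.90 and 2.96 CPM) were the other two with an estimate below 0, and their groups overlapped. All 3 lie outside Hist1 and are expressed at a low level.

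No H2B gene passed with edgeR, DESeq2 or limma-voom; at an unadjusted edgeR p under 0.05, 6 were higher. Of 16 H2B genes 14 were tested, 13 had a change above 0 (median 0.31, but 0.19 without WT library 2 and 0.22 without null library 1), and the sum was 5042 and 4288 CPM in WT, against 6177, 5290 and 5173 CPM in null libraries. The 2 lowest p-values were those of Hist1h2bp (45.0 and 44.7 CPM against 70.1, 57.8 and 53.8 CPM, edgeR adjusted p = 0.160) and Hist1h2bl (351 and 297 CPM against 462, 420 and 380 CPM, 0.222). Hist1h2bb, the most abundant H2B gene, had 1296 and 1039 CPM in WT, against 1532, 1123 and 1216 CPM in null libraries, and 2 of the null values lay between the WT values. Groups overlapped for Hist1h2bg too, where WT was at 863 and 862 CPM and null libraries at 1016, 965 and 849 CPM.

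H3, which forms the core tetramer of the nucleosome with H4, had the most calls of the 5 types with DESeq2. Of 12 H3 genes 11 were tested, 10 had a change above 0 with groups that did not overlap (median of the 11 0.42), and 6 passed with DESeq2. Hist1h3g, an H3.1 gene, was at 112 and 105 CPM in WT, against 224, 165 and 156 CPM in null libraries. It rose by 0.74 (SE 0.15, edgeR adjusted p = 0.0222, DESeq2 4.0e-04), and it was the only member still called without null library 1. Leaving out WT library 1 (0.128) or WT library 2 (0.354) ended the call; the 1 WT library left then borrows its spread from the null group. It is a minor H3 gene, with 1.33% and 1.42% of the H3 CPM in WT, against 1.99%, 1.60% and 1.62% in null libraries. Its mRNA carries the stem-loop found in no other member, shown above, and 45.95% of its 50-base stretches were unique.

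Every other tested H3 gene, more abundant or less, had a smaller estimate than Hist1h3g. Hist1h3b was at 1024 and 926 CPM in WT, against 1340, 1323 and 1243 CPM in null libraries (log2 fold change 0.42, SE 0.12). Hist1h3d was at 861 and 763 CPM against 1084, 1142 and 1050 CPM (0.43, SE 0.12). Both passed with DESeq2 (adjusted p = 0.0052 and 0.0047) and not with edgeR (0.119 and 0.113). Hist1h3e, Hist1h3h and Hist1h3i likewise passed with DESeq2 alone, with changes of 0.37, 0.44 and 0.43. Hist1h3f, the highest H3 gene per coding kilobase, had 1574 and 1358 CPM against 1942, 1838 and 1707 CPM and passed with neither (edgeR adjusted p = 0.306). Summed, the 4 H3.1 genes were at 2124 and 1834 CPM in WT, against 3017, 2669 and 2407 CPM in null libraries, and the 7 H3.2 genes at 6323 and 5571 CPM against 8278, 7619 and 7253 CPM. The ratios of means were 1.36 and 1.30, and the difference between the classes was not tested.

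All 13 H4 genes were tested and had a change above 0 (median 0.31, and 0.19 without WT library 2 or null library 1), none passed with edgeR, DESeq2 or limma-voom, and at an unadjusted edgeR p under 0.05, 4 were higher. Their sum was 6264 and 5127 CPM in WT, against 8060, 6356 and 6597 CPM in null libraries. Hist2h4 had the largest estimate, with 312 and 287 CPM in WT, against 623, 370 and 450 CPM in null libraries (0.69, SE 0.19, edgeR adjusted p = 0.0939), and null library 1 was the highest by far. Without null library 2 it was called (adjusted p = 0.0111). Hist1h4i (87.9 and 73.8 CPM against 105, 98.8 and 96.3 CPM) had the next lowest p in the type, with an edgeR adjusted p of 0.261. Hist1h4d was at 1803 and 1463 CPM in WT, against 2150, 1835 and 1883 CPM in null libraries, with a change of 0.26 (SE 0.14), and Hist1h4f had the smallest H4 estimate, 0.23 (SE 0.15).

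**Figure D4:**
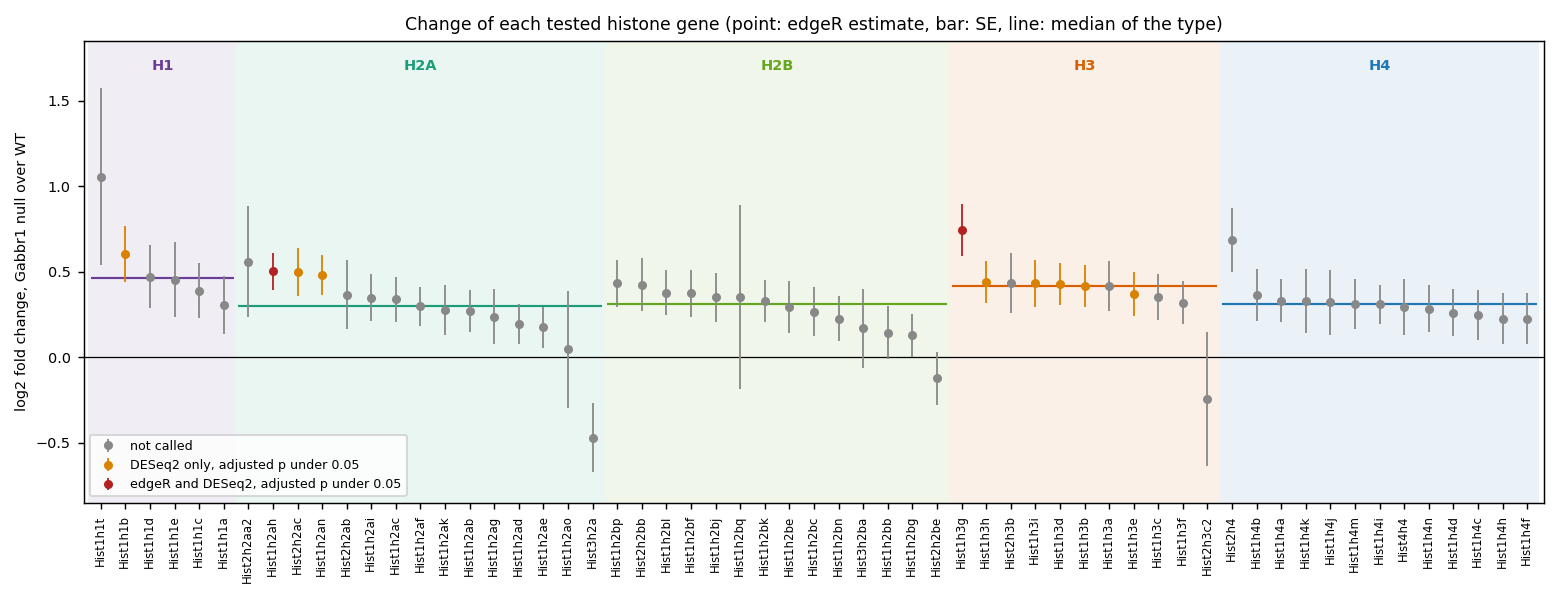
Log2 fold change of the 59 tested members, Gabbr1 null over WT, by type: points are edgeR estimates, vertical bars are SE and horizontal lines are medians of the type. Hist1h3g and Hist1h2ah pass with edgeR and DESeq2, 8 further genes with DESeq2 only, and Hist3h2a, Hist2h2be and Hist2h3c2 lie below 0.

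By location, all 48 tested Hist1 genes had an estimate above 0. The median was 0.34 over the 20 tested genes of the block at chr13:21715763-22043676 and 0.33 over the 28 of the block at chr13:23531050-23934851. At Hist2 6 of 8 were above 0 (median 0.43), and the locus summed to 1832 and 1489 CPM in WT, against 2802, 2010 and 2150 CPM in null libraries. Hist3h2ba (0.17) and Hist4h4 (0.30) did not pass. Differences between loci were not tested.

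Many H2A and H2B genes sit head to head and share a promoter region. The annotation held 12 such pairs, with starts 176 to 306 bp apart. In 9 of the 10 pairs in which both genes were tested, both estimates were above 0. The exception was Hist2h2ac (0.50, SE 0.14) with Hist2h2be (-0.12, SE 0.16), whose mean levels per coding kilobase differed 14.3-fold, and the difference between their changes was not tested. Hist1h2ah pairs with Hist1h2bk, which was at 230 and 197 CPM in WT, against 295, 247 and 263 CPM in null libraries (0.33, SE 0.12, edgeR adjusted p = 0.267).

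Promoter windows from 250 bases before to 50 after the RefSeq start (GRCm38.p6) were matched for 60 members. Both strands were searched, and overlapping matches were kept, for the octamer ATTTGCAT, the core of the CCAAT box (CCAAT) and the TATA box core TATAAA. The octamer was present in 12 of the 60 windows, 7 of H2A and 5 of H2B genes, against 1.75% of all 27025 gene windows. Windows of head-to-head pairs can overlap, so the 12 windows hold fewer distinct sites. The octamer of Hist1h2ah is also that of Hist1h2bk, that of Hist1h2ae is also that of Hist1h2bg, and that of Hist1h2ba is also that of Hist1h2aa. A CCAAT match was present in 51, that is in every H1, H2A, H2B and H3 window and in 3 of 12 H4 windows, against 37.9% of all windows, and TATAAA in 35 (14.2% of all windows). Such short matches describe the sequence and do not show a bound site. The windows of both edgeR-called genes are shown for their difference in motifs, with matches on either strand in capitals, each on the strand of its gene. Hist1h2ah (chr13:22035594-22035893, minus strand) holds the octamer, 3 CCAAT matches and TATAAA, and Hist1h3g (chr13:23535168-23535467, plus strand) holds 3 CCAAT matches alone. The GENCODE start of Hist1h2ah lies 75 bp from the RefSeq start.
Hist1h2ah: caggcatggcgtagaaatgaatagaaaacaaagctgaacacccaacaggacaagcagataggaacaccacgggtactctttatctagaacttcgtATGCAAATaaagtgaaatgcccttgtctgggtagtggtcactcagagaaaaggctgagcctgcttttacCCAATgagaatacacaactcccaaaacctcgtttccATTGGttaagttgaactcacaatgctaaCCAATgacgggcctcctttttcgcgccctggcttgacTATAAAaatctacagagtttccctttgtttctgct
Hist1h3g: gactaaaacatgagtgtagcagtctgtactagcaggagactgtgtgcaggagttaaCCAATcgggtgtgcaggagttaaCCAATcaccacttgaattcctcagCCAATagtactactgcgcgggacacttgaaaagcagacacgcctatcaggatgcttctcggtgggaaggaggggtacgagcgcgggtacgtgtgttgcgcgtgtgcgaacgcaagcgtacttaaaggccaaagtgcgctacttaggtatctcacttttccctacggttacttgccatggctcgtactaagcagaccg
Among H2A and H2B genes with a window, the median log2 fold change was 0.30 over the 10 tested genes with the octamer and 0.35 over the 17 without it, a difference that was not tested.

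Many members share long stretches of sequence. In 35 members at least 50% of the 50-base stretches occur in no other gene's transcripts, and the median over members was 50.7%. The 32 tested members of this more unique class included neither edgeR call, 3 DESeq2 calls and no limma-voom call, with 14 higher and 1 lower at an unadjusted edgeR p under 0.05 and a median change of 0.32. The 27 tested members below 50% held both edgeR calls, 7 DESeq2 calls and 2 limma-voom calls. At an unadjusted edgeR p under 0.05, 16 of them were higher and 0 lower, and their median change was 0.35. Summed levels were 1.26 and 1.28 times the WT mean. In addition, 24 members overlap the exons of another gene, and the sources used here do not give the strand setting of the counting.

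Other genes of the histone pathway were read from lists of its parts. Of 26 genes for the expression and 3′ processing of histone mRNA, none passed with edgeR, DESeq2 or limma-voom, 5 were higher and 0 lower at an unadjusted edgeR p under 0.05, and the median change was -0.02. Slbp, whose protein binds the stem-loop, was at 193 and 168 CPM in WT, against 214, 220 and 225 CPM in null libraries, with no overlap (0.28, SE 0.11, edgeR adjusted p = 0.279). Npat, the S-phase coactivator of histone genes, was at 41.4 and 40.6 CPM against 37.4, 48.4 and 42.8 CPM and overlapped. Ccne1, the cyclin E1 that acts with CDK2 on NPAT, was at 16.6 and 17.4 CPM against 31.8, 23.6 and 25.3 CPM and had the lowest p of the list (0.66, SE 0.18, edgeR adjusted p = 0.0906).

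Of 21 histone chaperone and assembly genes only Asf1b rose with edgeR, where 2.15% of all genes did. This chaperone hands new H3 and H4 to the assembly machinery, and it was at 31.0 and 39.0 CPM in WT, against 63.2, 48.4 and 62.1 CPM in null libraries (0.73, SE 0.16, edgeR adjusted p = 0.0287). The genes of the CAF-1 complex, Chaf1a (0.03, SE 0.10) and Chaf1b (0.23, SE 0.11), did not pass. Of the 12 tested genes listed as replication-independent histone variants, none passed with edgeR and 1 with DESeq2 or limma-voom. By unadjusted edgeR p (under 0.05) 2 were higher and 2 lower, and the median change was 0.07. H2afx, which encodes H2A.X, came closest, at 387 and 401 CPM in WT, against 618, 507 and 576 CPM in null libraries (0.52, SE 0.13, adjusted p = 0.0543 with edgeR and 0.0013 with DESeq2). Its place on this list was a choice, and whether its mRNA here was polyadenylated or made outside S phase was not tested. H2afz (280 and 275 CPM against 311, 234 and 327 CPM) and H3f3b (483 and 479 CPM against 544, 445 and 536 CPM) overlapped between groups.

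Of 51 S-phase and DNA replication genes 47 had a change above 0, against 49.2% of all genes. With edgeR 2 rose, where 2.15% of all genes did. E2f2 (change of 1.35, SE 0.13, edgeR adjusted p = 2.5e-04) encodes a transcription factor of the G1 to S transition. Rrm2 (0.97, SE 0.12, edgeR adjusted p = 0.0011) encodes a subunit of the enzyme that makes deoxyribonucleotides. The list's median change was 0.13, below that of the histone genes. In 20 of the 51 genes every null library was above both WT libraries (15.5% of all genes), and in 1 every null library was below (13.7%). The list's sum was 8444 and 8411 CPM in WT, against 9108, 9330 and 9577 CPM in null libraries. Divided by that sum, the histone total was 3.40 and 2.96 in WT and 4.22, 3.41 and 3.33 in null libraries. On this scale null libraries 2 and 3 were next to WT library 1, and the groups overlapped. Mki67, a marker of cycling cells, overlapped as well, at 212 and 267 CPM against 236, 274 and 259 CPM. The order of the null libraries also differed: null library 1 was the lowest of the 3 for the S-phase list and the highest for histone genes. What part the share of cells in S phase has in the histone values was not tested.

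**Figure D5:**
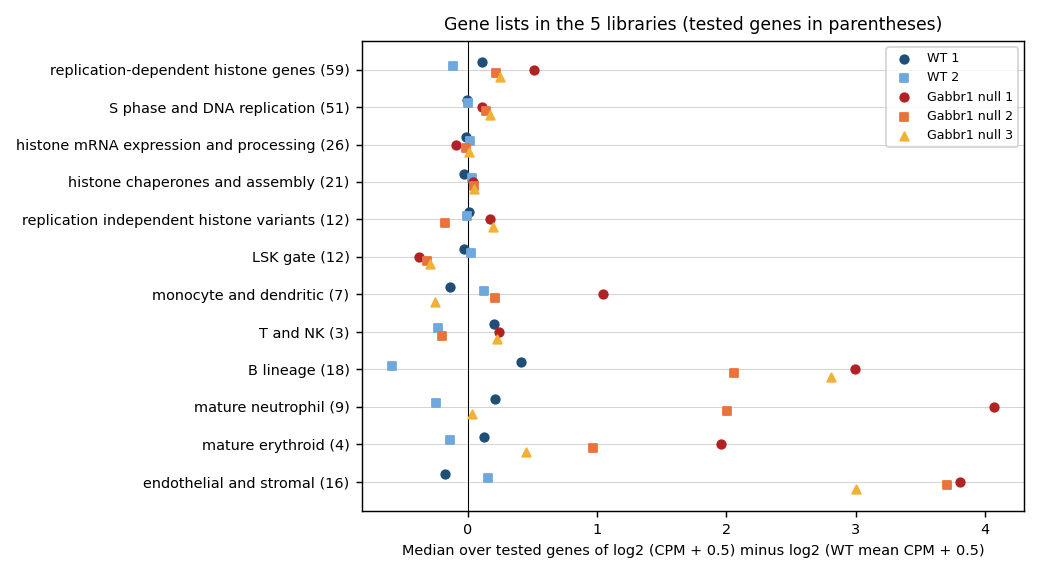
Median over the tested genes of each list of log2 (CPM + 0.5) minus that of the WT mean, for each library. For replication-dependent histone genes the null libraries lie at 0.51, 0.22 and 0.25 and the WT libraries at 0.11 and -0.11, whereas the processing and chaperone lists stay within 0.1 of 0 and the B-lineage and endothelial and stromal lists lie above 2 in every null library.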

How the data were processed

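RNA of 5 sorted LSK libraries (WT n = 2, Gabbr1 null n = 3) was sequenced as 2 reads of 50 bp per fragment after ribosomal RNA depletion of 3.6 to 5 ng of RNA, per the labels' protocols. The deposited table holds raw counts, as whole numbers for each gene and library, which the authors did not normalize. STAR, featureCounts and the mm10 build are named per the submitters' processing notes; the sources used here give no versions, annotation release or strand setting, nor how reads with several matches were handled. Of the 39056 identifiers, 99.53% matched GENCODE release M21, which gave symbols, coordinates and transcript models. Members and gene lists were chosen with earlier results of these data known.

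Genes were kept with filterByExpr by group (13467), scaled with TMM factors and compared by genotype in edgeR 4.0.16 under R 4.3.3 (glmQLFit and glmQLFTest, no covariates), with 3 residual degrees of freedom and Benjamini-Hochberg adjustment over all genes tested. Log2 fold changes are null over WT, and the SE was derived from the F statistic. CPM values are TMM-normalised. Unique sequence was counted as 50-base stretches found in the transcripts of no other M21 gene, leaving out genes that overlap the member itself. Single stretches were scored, not the pair of reads of a fragment. Stem-loops were searched after the stop codon as 6 pairs with a loop of 4 bases. The 5 libraries differed within groups by more than sampling noise (chi-square per degree of freedom 8.24 to 13.1). With total counts of 6972753 to 8150774, 1 CPM stands for about 7 to 8 counts. The code was tested on simulated data for null over WT with 13467 genes: it recovered 13 of 64 genes changed 1.5-fold, 49 of 64 changed 2-fold and 56 of 62 changed 4-fold, and 11 of 129 calls were unchanged genes.

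Every member could be named. Per-library values were given for members past the threshold in edgeR or DESeq2, the highest genes, the lowest p-values and the extreme fold changes of each type, and of other lists for genes past the threshold, the lowest p-values or the highest levels; Npat, Slbp, the CAF-1 genes and Mki67 were added for their role. Alternatives were RLE size factors, TMM factors without the members, no filter, DESeq2 1.42.0, a minimum of 1 CPM in each library, limma-voom (limma 3.58.1), a robust fit, an adjusted p under 0.1, members with mostly unique sequence, and each library left out in turn. A list of 7 other RNAs without a poly(A) tail matched no row of the table.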

Additional observations from a re-analysis of the deposited data

How the results depend on the processing

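The count of members higher in null libraries depended most on the processing. It was 2 in the reported analysis, 15 with no filter on low counts, 10 with DESeq2, 6 with a robust fit, 6 at an adjusted p under 0.1, 0 among members with mostly unique sequence, and 0 to 3 with 1 library left out. It was 0 without WT library 1 or WT library 2, 1 without null library 1 and 3 without null library 2. Over all genes, 289 were higher and 45 lower; with no filter these were 602 and 155, with a CPM of at least 1 in every library 173 genes were higher, and at an adjusted p under 0.1 81 were lower. With 1 library left out, 32 to 316 genes were higher and 0 to 51 lower, with the smallest counts without WT library 2. The cause of these differences was not tested. In contrast, the median over tested members lay between 0.22 (without WT library 2) and 0.43 (without WT library 1) in every alternative run, and the ratio of summed levels between 1.185 and 1.356. The median of each type stayed above 0, between 0.19 (H4, without WT library 2) and 0.62 (H1, without null library 2). 5 tested members reversed in at least 1 alternative. Without WT library 2 they were Hist1h2bb (-0.0063, and 0.30 without WT library 1), Hist2h3c2 (0.18, and -0.60 without WT library 1) and Hist3h2ba (-0.021), without null library 1 Hist1h2ao (-0.15), Hist1h2bq (-0.18) and Hist3h2ba (-0.084), and without WT library 1 Hist1h2ao (-0.27). No paired analysis was possible because the labels give the libraries no shared replicate numbers. Low counts limit the 15 members with a mean under 50 CPM, of which 9 were tested, with an SE of up to 0.54. What part depth or shared sequence has in these low counts was not tested.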
